A study of Mus musculus with 48 samples.

Results

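Interferon-stimulated genes are the genes that a cell switches on when an interferon, an alarm signal of antiviral defence, binds its receptors. The 9 followed here are Ifit1, Ifit2, Ifit3, Isg15, Irf7, Oasl2, Rsad2, Usp18 and Ifi44, chosen by name from the gene names of a whole-genome expression microarray. On this array 12 of 56605 non-control probes carried these names, and 11 of them, covering all 9 genes, were among the 30793 probes for 20486 genes that were kept as clearly detected. Each gene is described by its brightest kept probe, and these 9 probes were well above background on all 48 arrays. Levels of different genes are not compared, since probes differ in how strongly they bind.

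The arrays measured RNA from whole livers of 48 male mice in 8 groups of 6, set out by genotype, diet and nutritional state. In p110αhep-/- mice both alleles of Pik3ca, which encodes the p110α catalytic subunit of a phosphoinositide 3-kinase that acts downstream of the insulin receptor, were floxed and Cre was driven by the albumin promoter, which is active in hepatocytes. The p110αhep+/+ mice were littermates with floxed alleles and without Cre, so the presence of Cre and the loss of p110α cannot be told apart. From 12 weeks of age the mice received a control diet (CTRL) or a high fat diet (HFD) with 60% of its calories from fat for 12 weeks, and they were killed at zeitgeber time 16 (hours after lights on), either fed or after 24 h without food. In bulk liver RNA, fewer cells of a type and less RNA per cell cannot be told apart. All 10 hepatocyte markers measured (among them Alb, Ttr and Apoa1) were well above background on all arrays of each group.

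Type I interferons bind the receptor chains IFNAR1 and IFNAR2, and the kinases JAK1 and TYK2 then activate transcription factors that bind the interferon-stimulated response element near the start of target genes. IRF7 is both a product of this response and a transcription factor that turns on interferon genes. In liver, hepatocytes and resident macrophages both carry the receptor and answer to interferon.

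The promoters of several of the 9 genes hold the core of that element, and they are shown because this is a sequence feature that the choice of genes did not use. RefSeq promoters (build GRCm38.p6), from 250 bases before to 50 bases after a transcript start, were found for 8 of the 9 genes, and for Usp18 none was matched. The core, spelled GAAA, any 2 bases and GAAA again and searched on both strands (on the other it reads TTTC, any 2 bases, TTTC), was present in 4 of these 8 genes, against 3.44% of all 32851 promoters of the same length. The stretches from position -160 to -51, counted from the start, are printed below in the direction of transcription, with matches in capitals. The Oasl2 stretch, which holds no match, is given for comparison.
Ifit1 (chr19:34640729-34640838, plus strand): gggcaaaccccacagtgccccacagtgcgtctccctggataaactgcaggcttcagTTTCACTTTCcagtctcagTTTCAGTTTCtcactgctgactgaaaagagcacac
Isg15 (chr4:156200869-156200978, minus strand): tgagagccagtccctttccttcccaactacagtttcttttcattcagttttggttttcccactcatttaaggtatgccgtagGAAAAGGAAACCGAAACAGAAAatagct
Rsad2 (chr12:26456503-26456612, minus strand): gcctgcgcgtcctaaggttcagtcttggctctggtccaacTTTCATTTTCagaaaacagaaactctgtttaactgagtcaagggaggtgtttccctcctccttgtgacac
Oasl2 (chr5:114896774-114896883, plus strand): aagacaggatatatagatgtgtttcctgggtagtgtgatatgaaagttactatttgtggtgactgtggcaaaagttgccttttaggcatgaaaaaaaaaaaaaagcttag

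In Ifit1 the matches began at positions -104 and -85, in Rsad2 at -120, and in Isg15 there were 3 overlapping matches that began at -78, -72 and -66. Ifit3 held the same pair of 10-base matches as Ifit1, TTTCACTTTC at -156 and TTTCAGTTTC at -122. Irf7, Oasl2, Ifi44 and both starts listed for Ifit2 held no match in this window. The core of the gamma-activated site, TTC, any 3 bases and GAA (the same on both strands), was found in 8.3% of all promoters and in 1 of these 8 genes, Ifit2, as TTCCTGGAA beginning at -241 from the first of its starts.

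The files place each of the 9 probes on a single unbroken stretch of 60 bases of the mm9 build. These are chr19:34723827-34723886 for Ifit1, chr19:34650244-34650303 for Ifit2 and chr19:34663105-34663164 for Ifit3, which lie near each other. Irf7 was read at chr7:148449104-148449163, Isg15 at chr4:155573649-155573708 and Usp18 at chr6:121220874-121220933. Oasl2 was read at chr5:115362168-115362227, Rsad2 at chr12:27127859-27127918 and Ifi44 at chr3:151394035-151394094.

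Between 52.3% and 59.3% of the features on an array were well above background, and no spot was saturated. Over all genes 46 of the 48 arrays were closest to their own group, and the exceptions were replicate 3 of the fed HFD p110αhep-/- mice and replicate 2 of the fed CTRL p110αhep+/+ mice, which both lay closest to the fed CTRL p110αhep-/- group. The probe for Pik3ca was higher in p110αhep-/- livers past the threshold in 3 of 4 comparisons, by 0.39 in fed CTRL (adjusted p = 0.000419 by limma), 0.58 in fed HFD (adjusted p = 2.99e-07, with no overlap) and 0.25 in fasted HFD mice (adjusted p = 0.0172) on the log2 scale, and had 0.08 (adjusted p = 0.531 by limma) in fasted CTRL mice. Whether this probe lies within the deleted exons 18 and 19 was not tested, so it checks neither the labels nor the knockout.

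Across the 8 groups the lowest means lay in p110αhep-/- mice on HFD. The fasted HFD p110αhep-/- mice had the lowest mean for 8 of the 9 genes, and for Usp18 they came next after the fed HFD p110αhep-/- mice. The step from their mean up to the next exceeded the larger SD of the neighbours only for Ifit2 (0.38) and Isg15 (0.64). By medians the fed HFD p110αhep-/- mice were lower for Ifit1 (6.65 against 6.79), Irf7 (11.74 against 11.78) and Usp18 (8.06 against 8.20). For Rsad2 the fed CTRL p110αhep-/- mice had the lowest median (7.85 against 7.91). The highest mean lay in a p110αhep+/+ group for all 9 genes, in fasted CTRL mice for Ifit1, Isg15, Irf7, Rsad2 and Ifi44, in fasted HFD mice for Ifit3, Oasl2 and Usp18, and in fed HFD mice for Ifit2. All levels below are log2 signals after quantile normalisation, where a difference of 1 is a doubling. Differences come from a linear model with limma that gives noisier arrays less weight, so they can depart a little from the difference of the plain means. A gene is said to have passed the test at a Benjamini-Hochberg adjusted p of at most 0.05 over all kept probes.

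**Figure D1:**
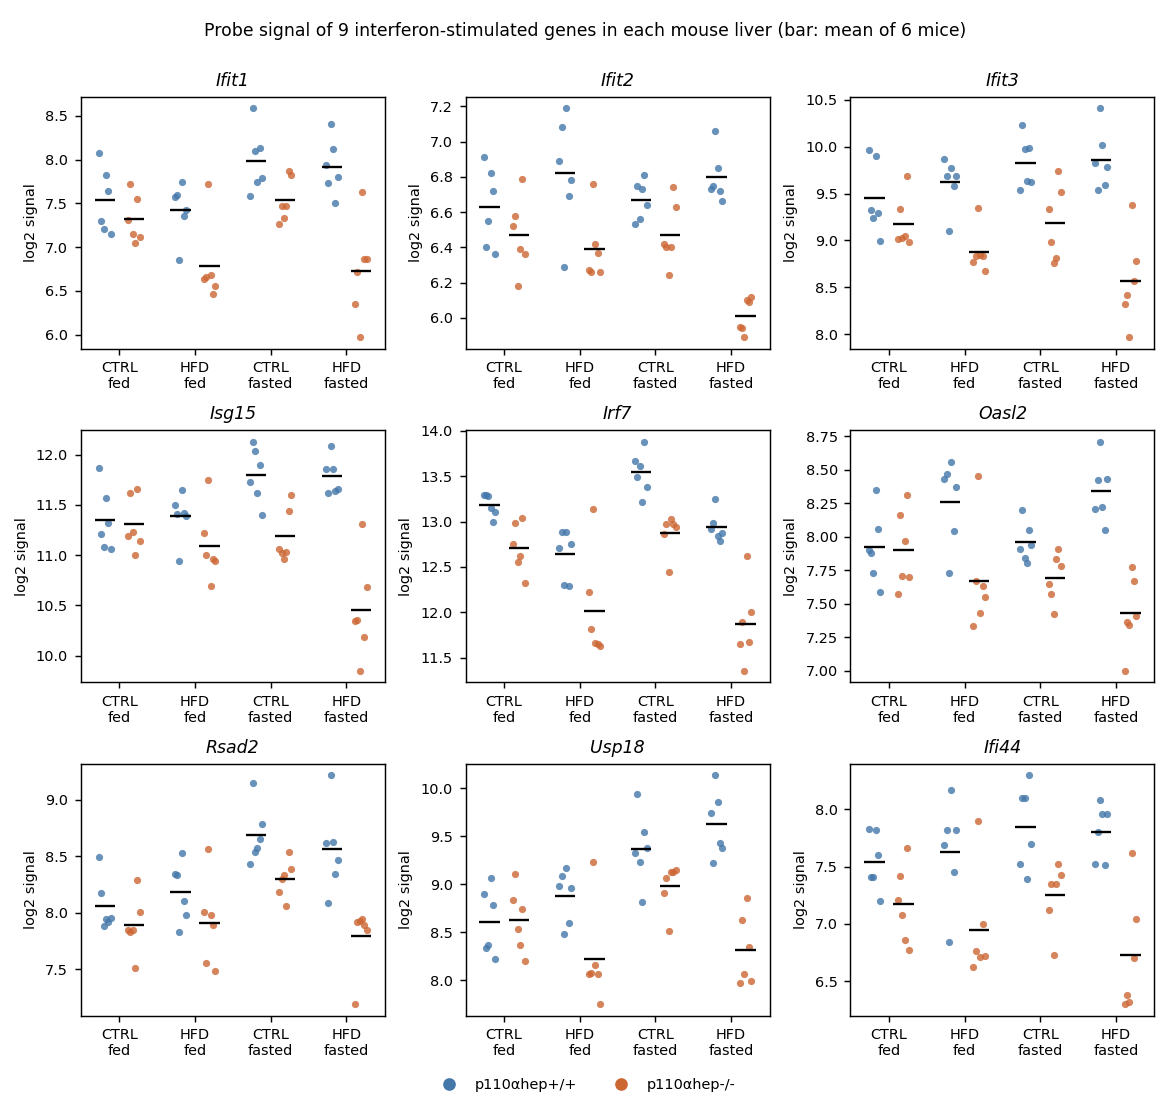
Log2 probe signal (vertical axes) of the 9 genes in each mouse, by diet and nutritional state, with p110αhep+/+ mice in blue and p110αhep-/- mice in orange; bars are means of 6 mice. In fasted HFD mice the genotypes do not overlap for 7 of the 9 genes, and 1 orange point stands above the rest in fed HFD mice.

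Genotype was compared first, within each diet and nutritional state. In fasted HFD mice all 9 genes were lower in p110αhep-/- livers and passed the test, where 17.7% of all 20486 genes passed in that direction. Their log2 differences ran from -1.37 to -0.78 with a median of -1.13, beside a median of 0.03 over all genes. For 7 of the 9 genes no p110αhep-/- mouse reached the lowest p110αhep+/+ mouse, where 7.54% of all genes were separated in that way. In fed HFD mice 7 of 9 passed as lower (16.3% of all genes did), with a median of -0.79 and overlap between the groups for each of the 9. In fasted CTRL mice 6 of 9 passed as lower (12.3% of all genes), with a median of -0.52, and 1 of 9, Irf7, was separated, where 5.02% of all genes were. In fed CTRL mice 1 of 9, Irf7, passed as lower (10.6% of all genes), with a median of -0.20. None of the 9 was called higher by limma in p110αhep-/- mice in these 4 comparisons, nor had an unadjusted p under 0.05 in that direction, while 10.9% of all genes were higher in fed CTRL, 16.6% in fed HFD, 12.5% in fasted CTRL and 19.1% in fasted HFD mice.

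**Figure D2:**
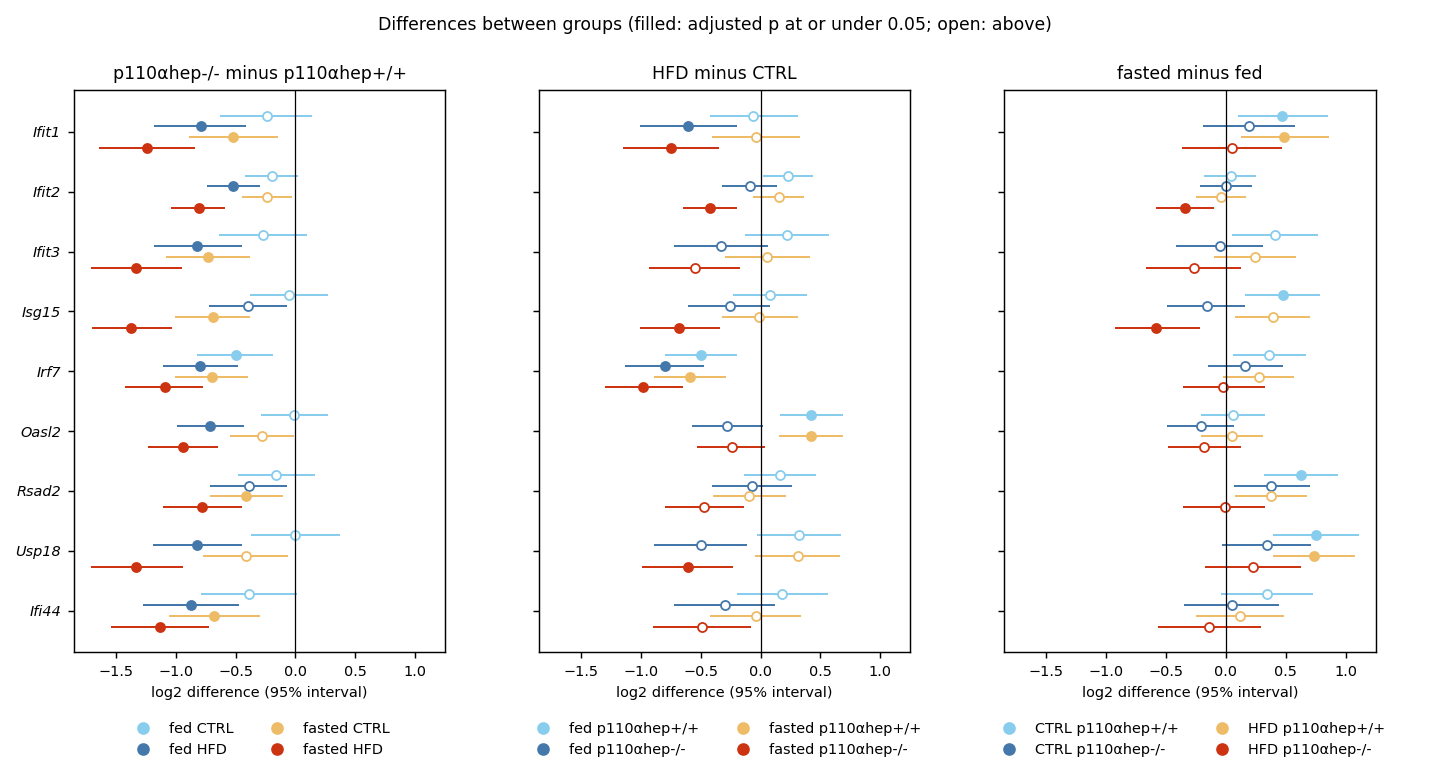
Log2 differences with 95% intervals for the 9 genes in 12 comparisons, by genotype (left), diet (middle) and fasting (right); filled points passed adjusted p 0.05 and open points did not. The fasted HFD genotype differences (red, left) all lie between -1.37 and -0.78.

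Irf7, the transcription factor of the set, was the gene called most often, in all 4 genotype comparisons and all 4 diet comparisons. In fed CTRL mice it ran from 12.99 to 13.29 (median 13.22) in p110αhep+/+ livers and from 12.32 to 13.04 (median 12.68) in p110αhep-/- livers. On HFD after fasting it ran from 12.79 to 13.25 (median 12.89) and from 11.36 to 12.62 (median 11.78). The groups touched in fed mice and were separate in fasted mice on either diet. The genotype difference was -0.50 (SE 0.16, adjusted p = 0.0181 by limma) in fed CTRL, -0.80 (SE 0.16, adjusted p = 0.000101) in fed HFD, -0.70 (SE 0.15, adjusted p = 0.000472) in fasted CTRL and -1.09 (SE 0.16, adjusted p = 1e-06) in fasted HFD mice. A second, dimmer Irf7 probe gave -0.55, -0.65, -0.55 and -1.07 in the same order and passed in all 4. The fed CTRL call was lost without p110αhep-/- replicate 3 or 6 or p110αhep+/+ replicate 3, and it passed within neither washing batch alone.

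HFD lowered Irf7 in both genotypes over all arrays. In fed p110αhep+/+ mice it went from 13.18 ± 0.12 (SD, n = 6) on CTRL to 12.64 ± 0.28 (SD, n = 6) on HFD, with no overlap, a difference of -0.50 (SE 0.15, adjusted p = 0.0122 by limma). The same contrast gave -0.59 (SE 0.15, adjusted p = 0.00582) in fasted p110αhep+/+ mice, -0.80 (SE 0.16, adjusted p = 0.000676) in fed p110αhep-/- mice and -0.98 (SE 0.16, adjusted p = 4.61e-05) in fasted p110αhep-/- mice. The tests of whether the diet effect differed between genotypes gave -0.30 (adjusted p = 0.525) in fed and -0.39 (adjusted p = 0.323) in fasted mice. Within either washing batch alone neither p110αhep+/+ call passed, at -0.26 (adjusted p = 0.422 by limma) and -0.76 (adjusted p = 0.0562) in fed mice and -0.56 and -0.64 in fasted mice, and the fed p110αhep-/- call did not pass within batch 2 (-0.94, adjusted p = 0.108). In the order of its 8 group means Irf7 had 3 steps that exceeded the larger SD of the neighbours: above both HFD p110αhep-/- groups, below the fed CTRL p110αhep+/+ group and below the fasted CTRL p110αhep+/+ group.

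Ifit1, Ifit2 and Ifit3 encode cytoplasmic proteins that bind foreign RNA and hold back its translation, and they lie together on chromosome 19. Ifit3 in fasted HFD mice ran from 9.54 to 10.41 (median 9.80) in p110αhep+/+ livers and from 7.97 to 9.38 (median 8.49) in p110αhep-/- livers. The groups did not overlap, and the level in p110αhep-/- livers was 39.8% of that in p110αhep+/+ livers (log2 difference -1.33, SE 0.19, adjusted p = 4.68e-07 by limma). Ifit1 showed 42.4% (difference -1.24, SE 0.20, adjusted p = 3.76e-06), with an overlap made by p110αhep-/- replicate 4 at 7.63 against a lowest p110αhep+/+ value of 7.51. Ifit2 showed 56.9% (difference -0.81, SE 0.11, adjusted p = 3.22e-07) and the tightest group of the set, 5.89 to 6.12 in p110αhep-/- mice against 6.66 to 7.06 in p110αhep+/+ mice.

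In fed HFD mice the 3 Ifit genes also passed, at -0.79 (SE 0.19, adjusted p = 0.00128 by limma) for Ifit1, -0.52 (SE 0.11, adjusted p = 0.000267) for Ifit2 and -0.82 (SE 0.18, adjusted p = 0.000561) for Ifit3. In fed HFD p110αhep-/- mice Ifit1 ran from 6.46 to 6.68 in 5 mice and stood at 7.72 in replicate 3, within the p110αhep+/+ range of 6.85 to 7.75. In fasted CTRL mice Ifit3 passed at -0.73 (adjusted p = 0.00172) and Ifit1 at -0.52 (adjusted p = 0.0333), while Ifit2 had -0.24 (adjusted p = 0.0947). The Ifit1 call there was lost in 7 of the 48 fits that each left out 1 array, with replicates 1 to 4 of the p110αhep-/- group and 2, 3 and 5 of the p110αhep+/+ group. None of the 3 passed in fed CTRL mice, where the differences were -0.24, -0.20 and -0.27. Ifit3 has a close relative, Ifit3b, and whether its probe also reads Ifit3b was not tested.

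The Ifit genes were compared by diet and by fasting in the same way. For Ifit1 the diet difference was -0.61 (SE 0.20, adjusted p = 0.041 by limma) in fed and -0.75 (SE 0.20, adjusted p = 0.0095) in fasted p110αhep-/- mice, and -0.06 and -0.04, neither passing, in fed and fasted p110αhep+/+ mice. The tests of the difference between genotypes gave -0.55 (adjusted p = 0.285) and -0.72 (adjusted p = 0.114). The fed p110αhep-/- value rests on single arrays, since 9 of the 48 fits without 1 array lost it. Ifit2 fell with HFD in fasted p110αhep-/- mice by 0.42 (adjusted p = 0.0108) and had 0.15 (adjusted p = 0.359) in fasted p110αhep+/+ mice, and this difference between genotypes passed its own test at -0.57 (SE 0.15, adjusted p = 0.0246). That last call was lost without p110αhep-/- HFD replicate 2 or 3 or p110αhep+/+ HFD replicate 3.

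Isg15 encodes a ubiquitin-like protein that is attached to other proteins, and Usp18 encodes the protease that removes it and also damps signalling at the interferon receptor. Over all arrays Isg15 had the largest genotype difference of the set, -1.37 (SE 0.17, adjusted p = 2.35e-08 by limma) in fasted HFD mice, close to the -1.33 of Ifit3 and Usp18. Within washing batch 2 Usp18 (-1.86), Ifit3 (-1.82) and Ifit1 (-1.81) exceeded its -1.70. In fasted HFD mice Isg15 ran from 11.62 to 12.09 (median 11.76) in p110αhep+/+ livers and from 9.85 to 11.31 (median 10.34) in p110αhep-/- livers, without overlap. In fasted CTRL mice the difference was -0.69 (SE 0.16, adjusted p = 0.000837). In fed mice it did not pass, with -0.40 (adjusted p = 0.0571) on HFD and -0.05 (adjusted p = 0.86) on CTRL.

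Fasting moved Isg15 in opposite directions in some groups. It rose in CTRL p110αhep+/+ mice by 0.48 (SE 0.16, adjusted p = 0.0178 by limma), from 11.35 ± 0.31 (SD, n = 6) to 11.80 ± 0.28 (SD, n = 6). In HFD p110αhep-/- mice it fell by 0.58 (SE 0.18, adjusted p = 0.0116), from 11.09 ± 0.36 (SD, n = 6) to 10.45 ± 0.50 (SD, n = 6). HFD p110αhep+/+ mice had 0.39 (adjusted p = 0.0519). The genotype difference in the fasting effect on HFD passed at -0.97 (SE 0.23, adjusted p = 0.0124), and it stayed past the threshold in all 48 fits that left out 1 array. Within either washing batch alone it did not pass. The fall in HFD p110αhep-/- mice was lost without replicate 3 of the fasted group, and the rise in CTRL p110αhep+/+ mice was lost without fasted replicate 3 or fed replicate 3 or 6. That rise passed within neither washing batch alone.

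Usp18 in fasted HFD mice ran from 9.22 to 10.14 (median 9.59) in p110αhep+/+ livers and from 7.97 to 8.86 (median 8.20) in p110αhep-/- livers, with no overlap and a difference of -1.33 (SE 0.19, adjusted p = 5.35e-07 by limma). In fed HFD mice the difference was -0.82 (SE 0.18, adjusted p = 0.000541), with p110αhep-/- replicate 3 at 9.23 above all p110αhep+/+ mice, whose highest value was 9.17. On CTRL the differences were -0.41 (adjusted p = 0.0851) in fasted and 0.00 (adjusted p = 0.996) in fed mice. Usp18 rose with fasting, by 0.75 (SE 0.18, adjusted p = 0.00103) in CTRL and 0.74 (SE 0.17, adjusted p = 0.00104) in HFD p110αhep+/+ mice. Both rises passed within washing batch 2 (1.07 and 1.18) and neither within batch 1 (0.34, adjusted p = 0.241 by limma, and 0.33, adjusted p = 0.26). In p110αhep-/- mice fasting gave 0.34 (adjusted p = 0.149) on CTRL and 0.23 (adjusted p = 0.437) on HFD, and the tests of the difference between genotypes gave adjusted p = 0.411 and 0.338. HFD lowered Usp18 in fasted p110αhep-/- mice (-0.61, adjusted p = 0.0316), and its diet effect in fasted mice differed between genotypes by -0.91 (SE 0.26, adjusted p = 0.0327). Leaving out 1 array lost the first of these in 6 and the second in 7 of 48 fits.

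Oasl2 encodes a member of the oligoadenylate synthetase family, which senses double-stranded RNA. Over all arrays it was the only member that HFD raised in p110αhep+/+ mice, by 0.42 in fed (SE 0.13, adjusted p = 0.017 by limma) and 0.42 in fasted mice (SE 0.13, adjusted p = 0.0289). In fed p110αhep+/+ mice it ran from 7.59 to 8.35 (median 7.89) on CTRL and from 7.73 to 8.56 (median 8.40) on HFD. In p110αhep-/- mice HFD gave -0.28 (adjusted p = 0.248) in fed and -0.24 (adjusted p = 0.312) in fasted mice. The difference between genotypes in the diet effect passed in both states, at -0.70 (SE 0.20, adjusted p = 0.0425) and -0.66 (SE 0.20, adjusted p = 0.0412). These calls were close to the threshold: leaving out 1 array lost the first in 15 and the second in 12 of 48 fits, and each rise in p110αhep+/+ mice was lost in 4 of 48. Within washing batch 1 alone Ifit2 (0.38, adjusted p = 0.0297 by limma) and Rsad2 (0.44, adjusted p = 0.0184) also rose with HFD in fed p110αhep+/+ mice.

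Between genotypes Oasl2 differed on HFD, at -0.71 (SE 0.14, adjusted p = 9.44e-05 by limma) in fed and -0.94 (SE 0.14, adjusted p = 1.72e-06) in fasted mice. After fasting on HFD it ran from 8.05 to 8.71 in p110αhep+/+ and reached no more than 7.77 (median 7.39) in p110αhep-/- livers, so the groups were separate. On CTRL the values were -0.01 (adjusted p = 0.963) and -0.28 (adjusted p = 0.126). No step in the order of its 8 group means exceeded the larger SD of the neighbours.

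Rsad2 encodes viperin, an enzyme that makes an antiviral nucleotide, and Ifi44 a cytoplasmic protein of the interferon response. Over all arrays Rsad2 had the smallest genotype difference of the set in fasted HFD mice, -0.78 (SE 0.16, adjusted p = 0.0002 by limma), close to the -0.81 of Ifit2. Within washing batch 2 Ifit2 had the smallest, -0.94, against -1.14 for Rsad2. In fasted HFD mice Rsad2 ran from 8.09 to 9.22 (median 8.54) in p110αhep+/+ and from 7.19 to 7.94 (median 7.91) in p110αhep-/- livers, with no overlap. It was lower by 0.41 in fasted CTRL mice (adjusted p = 0.0445), a call lost in 7 of 48 fits without 1 array, and it did not pass in fed mice (-0.39, adjusted p = 0.0548 on HFD and -0.16, adjusted p = 0.523 on CTRL). Fasting raised it in CTRL p110αhep+/+ mice by 0.63 (SE 0.15, adjusted p = 0.00127), a 1.55-fold change that passed the test in every alternative fit. A second, dimmer Rsad2 probe gave -0.54 for the fasted HFD genotype comparison (adjusted p = 0.00114) and 0.38 for fasting (adjusted p = 0.0153).

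Ifi44 was lower in p110αhep-/- livers by 1.13 in fasted HFD mice (log2 difference -1.13, SE 0.20, adjusted p = 2.63e-05 by limma), by 0.87 in fed HFD mice (-0.87, SE 0.20, adjusted p = 0.000625) and by 0.68 in fasted CTRL mice (-0.68, SE 0.19, adjusted p = 0.00657). After fasting on HFD it ran from 7.51 to 8.08 in p110αhep+/+ livers and from 6.30 to 7.04 in 5 p110αhep-/- mice, with replicate 4 at 7.62. In fed CTRL mice the difference was -0.39 (adjusted p = 0.166). Neither diet nor fasting gave a call for this gene over all arrays. Its diet difference in fasted p110αhep-/- mice was -0.49 (adjusted p = 0.125 by limma), and without replicate 4 of the HFD group it was -0.69 (adjusted p = 0.0181). A second Ifi44 probe, for another transcript, was not kept, since it was well above background on at most 2 of 6 arrays of any group.

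The 4 genes with the response element core and the 4 without it overlapped in their responses. The fasted HFD genotype differences were -1.24, -1.33, -1.37 and -0.78 for Ifit1, Ifit3, Isg15 and Rsad2, whose matches are printed above, and -0.81, -1.09, -0.94 and -1.13 for Ifit2, Irf7, Oasl2 and Ifi44.

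By diet, the comparisons share their CTRL or HFD groups with those by genotype, and each count is given on its own. HFD lowered 5 of the 9 genes in fasted p110αhep-/- mice (Ifit1, Ifit2, Isg15, Irf7 and Usp18), where 5.18% of all genes passed as lower, with a median log2 difference of -0.55. Without p110αhep-/- HFD fasted replicate 3 the count was 2 and without replicate 4 it was 7 (median -0.72). Within washing batch 1 it was 1 (median -0.34) and within batch 2 it was 2 (median -0.70), with all 9 estimates below 0 in both. In fed p110αhep-/- mice HFD lowered 2, Ifit1 and Irf7 (6.38% of all genes), with a median of -0.30, 9 of the 48 fits without 1 array left 1, and without fed HFD replicate 3 the count was 3. In fasted p110αhep-/- mice that array, although in neither group, moved the count of 5 to 6. HFD raised none of the 9 in p110αhep-/- mice, fed or fasted, by limma or at an unadjusted p under 0.05, where 5.82% and 5.65% of all genes rose. In p110αhep+/+ mice 1 gene fell and 1 rose in the fed state, where 11.7% and 12.4% of all genes did, and likewise in the fasted state, where 6.97% and 8.96% did. The medians were 0.18 and -0.01, and in each state 4 of the 48 fits without 1 array left 1 call, that of Irf7. Within washing batch 1, 3 rose and none fell in the fed state (Ifit2, Oasl2 and Rsad2) and 1 rose in the fasted state (Oasl2), and within batch 2 limma called 0 in either.

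By fasting, 4 of the 9 genes rose in CTRL p110αhep+/+ mice (Ifit1, Isg15, Rsad2 and Usp18) and none fell, where 16% of all genes rose and 16.5% fell, with a median of 0.41. The Ifit1 rise was lost in 20 of 48 fits without 1 array, and the count was 2 without fasted replicate 3 or fed replicate 3 or 6, 3 without fed replicate 2 and 5 without fed HFD p110αhep-/- replicate 3. That rise was also lost in 13 of the 17 other settings, among them the deposited log2 values. Within washing batch 1 only Rsad2 passed in CTRL p110αhep+/+ mice (median 0.21), and within batch 2 only Rsad2 and Usp18 did (median 0.50). In HFD p110αhep+/+ mice 2 rose, Ifit1 and Usp18, and none fell (13.8% and 14.7% of all genes), with a median of 0.28. The Ifit1 rise was lost without fasted replicate 3 or 4 or fed replicate 3 or 6, and in 6 other fits without 1 array, among them that without fed HFD p110αhep-/- replicate 3, the count was 4. Within washing batch 1 this comparison gave 1 call, Ifit2 at -0.35 (adjusted p = 0.035 by limma), and neither of the rises. Within batch 2 it gave 3 rises, Ifit1 (0.87), Rsad2 (0.82) and Usp18 (1.18), and no fall (median 0.60).

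In HFD p110αhep-/- mice fasting lowered 2, Ifit2 and Isg15, and raised none (14.6% and 13.9% of all genes), with a median of -0.14. Ifit2 had a difference of -0.34 (SE 0.12, adjusted p = 0.0312 by limma) with no overlap, from 6.26 to 6.76 fed and from 5.89 to 6.12 fasted. Without fasted replicate 3 the count was 0, without fed replicate 3 it was 1, and Ifit2 was lost in 6 of 48 fits without 1 array. The washing batches differed in direction. Within batch 1 the count was 0, with a median of 0.10 and 3 of 9 estimates below 0. Within batch 2 it was 1, Isg15, with a median of -0.43 and all 9 estimates below 0. In CTRL p110αhep-/- mice limma called 0 of the 9 in either direction (19.1% of all genes fell and 16.4% rose), with a median of 0.05. Rsad2 alone had an unadjusted p under 0.05 there (0.38, adjusted p = 0.0527), and 10 of 48 fits without 1 array, among them that without fed HFD replicate 3, gave 1 call. Within washing batch 1 this comparison gave 2 rises, Rsad2 (0.36, adjusted p = 0.0106 by limma) and Usp18 (0.47, adjusted p = 0.0351). Its median was 0.22 in that batch, and within batch 2 limma called 0 (median -0.10).

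Of 54 tests of whether an effect differed between groups, 5 passed, all with the more negative effect in p110αhep-/- mice. Genotype by diet gave 1 of 9 in fed mice, Oasl2 (2.83% of all genes in either direction), and 3 of 9 in fasted mice, Ifit2, Oasl2 and Usp18 (4.96%). The fed count was 0 in 15 of 48 fits without 1 array, among them that without fed CTRL p110αhep+/+ replicate 2, and 2 in 3 others, without fed HFD replicate 3 of either genotype or fed CTRL p110αhep+/+ replicate 4. The fasted count was 0 without p110αhep-/- HFD replicate 3 or p110αhep+/+ HFD replicate 3, and 5 without p110αhep-/- HFD replicate 4. Genotype by fasting gave 1 of 9 on HFD, Isg15 (3.37%), and 0 of 9 on CTRL (3.92%), where Isg15 alone had an unadjusted p under 0.05 and 1 fit without 1 array (fed CTRL p110αhep+/+ replicate 1) gave 1 call. For genotype by fasting on HFD the median was 0.22 within washing batch 1 and -0.94 within batch 2, with 0 calls in each. Diet by fasting gave 0 of 9 by limma in either genotype (2.36% of all genes in p110αhep+/+ and 7.9% in p110αhep-/- mice), with an unadjusted p under 0.05 for 0 and 1 gene, respectively.

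Within groups the 9 genes tended to deviate together from mouse to mouse. After subtracting each group's mean, the deviations of the 9 genes over 48 mice correlated at a Pearson r of 0.47 to 0.90 over the 36 pairs, with a median of 0.72 (Spearman's rho 0.35 to 0.86, median 0.68). The values of 1 mouse share an RNA sample and an array, so the correlations are a description. Without the 2 mice with the largest deviations the range was 0.34 to 0.87, with a median of 0.66. Ifit1 with Isg15 had the highest r, 0.90, and Irf7 with Rsad2 the lowest, 0.47. Rsad2 followed the others least, with a median r of 0.58, and Ifi44 most, with 0.80.

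**Figure D3:**
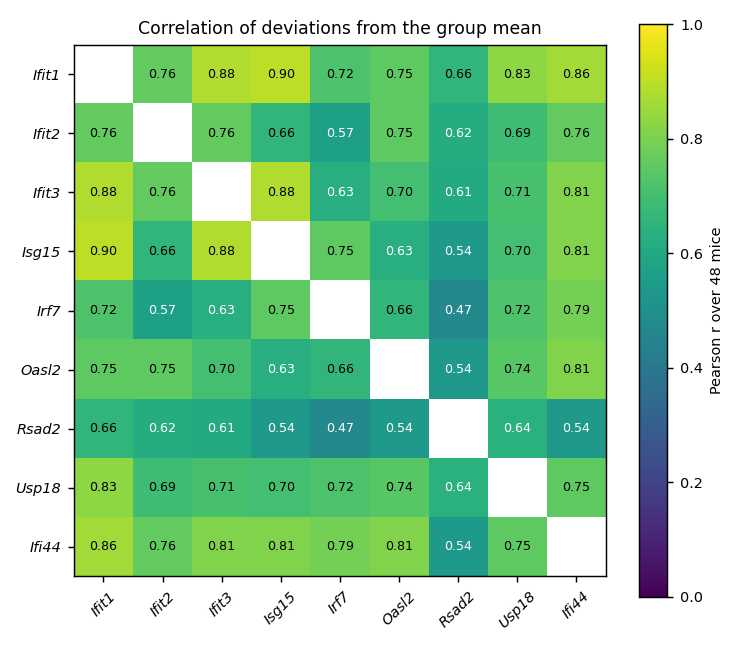
Pearson r between the deviations of each pair of genes from their group means, over 48 mice (both axes list the 9 genes, colour gives r). Values run from 0.47 for Irf7 with Rsad2 to 0.90 for Ifit1 with Isg15.

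The 2 mice with the largest deviations were both p110αhep-/- mice on HFD. Fed replicate 3 was the highest of its group for all 9 genes, 0.77 above the group mean on average, and its array had the lowest weight of the 48, 0.35. Fasted replicate 4 was the highest of its group for 8 of 9 genes, 0.59 above the mean on average, with an array weight of 0.85. In p110αhep+/+ mice fasted HFD replicate 3 was highest for all 9 genes (0.41 above the mean) and fed HFD replicate 3 lowest for 8 of 9 (0.50 below). The SD of these mean deviations was 0.38 and 0.34 in the fed and fasted HFD p110αhep-/- groups, and 0.21 to 0.29 in the other 6 groups.

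**Figure D4:**
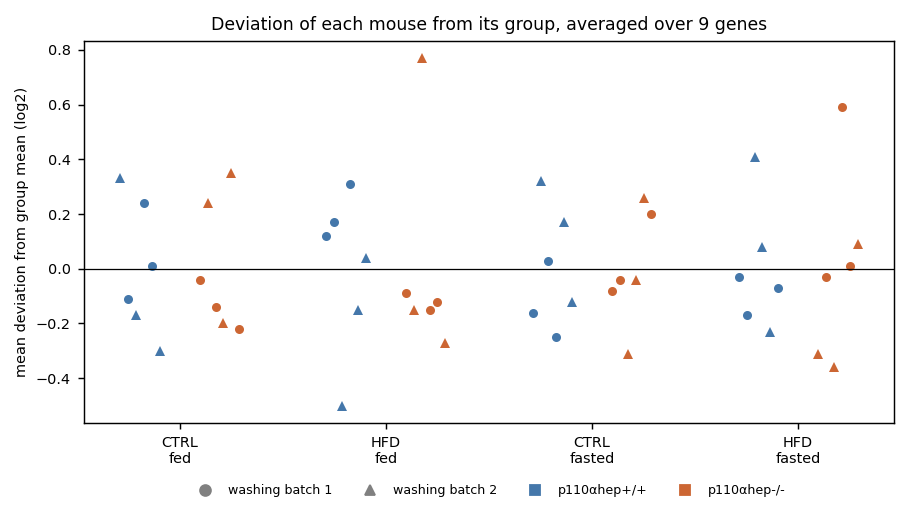
Deviation of each mouse from its group mean, averaged over the 9 genes (vertical axis, log2), by diet and nutritional state; colours give genotype and symbols the washing batch of the array. Fed HFD p110αhep-/- replicate 3 lies highest at 0.77 and fed HFD p110αhep+/+ replicate 3 lowest at -0.50.

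The genotype counts moved with single arrays. In fasted CTRL mice the count of 6 ran from 4 to 7, with 4 in 6 of the 48 fits (without p110αhep-/- replicate 1, 2, 3 or 4 or p110αhep+/+ replicate 2 or 5), and in fed CTRL mice the 1 call, Irf7, was lost in 3 fits. Without fed HFD p110αhep-/- replicate 3 all 9 genes passed in fed HFD mice, with a median of -0.85, and Isg15 and Rsad2 joined at -0.45 (adjusted p = 0.0303 by limma) and -0.45 (adjusted p = 0.0245). Without fasted HFD p110αhep-/- replicate 4 all 9 passed in fasted HFD mice with a median of -1.33. Without both arrays that lay closest to another group the genotype counts were 1, 9, 6 and 9 in fed CTRL, fed HFD, fasted CTRL and fasted HFD mice.

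Arrays were washed in 2 batches that each held 3 mice of each group. In fasted HFD mice all 9 genes passed as lower within either batch, with medians of -0.78 and -1.44. In fed HFD mice all 9 passed within batch 1 (median -0.99) and 0 of 9 within batch 2 (median -0.47), with all 9 estimates below 0 there. In fasted CTRL mice the count of 6 was 2 within either batch (medians -0.42 and -0.67), with all 9 estimates below 0 in both. In fed CTRL mice the 1 call, Irf7, passed within neither batch (-0.57, adjusted p = 0.0676 by limma, and -0.38, adjusted p = 0.382). Batch 1 gave 2 other calls there, Ifit2 and Oasl2 (median -0.44), and batch 2 gave 0 (median -0.08). For fed HFD mice, batch 2 held both replicate 3 of the p110αhep-/- group (0.77 above its group mean) and replicate 3 of the p110αhep+/+ group (0.50 below), and their part was not tested.

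The genes whose deviations most resembled the mean of the 9, out of 20476 others over the 48 mice, were Oas1f (r = 0.86), Xaf1 (0.85), LOC102639543 (0.85), Ifit3b (0.84), Oas1a (0.84), Cmpk2 (0.84), Rtp4 (0.83), Mx1 (0.81), Mndal (0.79) and Ifi204 (0.78). Of these 10, 9 were lower in fasted HFD p110αhep-/- livers past the threshold, as were 17.7% of all genes, most in Ifit3b and least in Ifi204 (-0.33), and Mndal had -0.27 (adjusted p = 0.0693 by limma). Most are themselves known as interferon-stimulated.

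The rest of the interferon pathway was described by lists of named genes. Of 56 other type I interferon-stimulated genes measured, 37 were lower and 1 higher in fasted HFD p110αhep-/- livers, with a median of -0.34. The lower ones with the largest differences were Oasl1 (-1.85, adjusted p = 2.3e-11 by limma), Ifi27l2b (-1.46, adjusted p = 6.52e-06), Samd9l (-1.22, adjusted p = 1.25e-11) and Ly6e (-1.15, adjusted p = 4.33e-08), and the higher one was Trim25 (0.98, adjusted p = 2.27e-05), a ubiquitin ligase. That is 66.1% lower and 1.79% higher, against 17.7% and 19.1% of all genes. In the same list 27 were lower and 10 higher in fed HFD mice (48.2% and 17.9%, against 16.3% and 16.6% of all genes), so the higher share was near that of all genes. In fasted CTRL mice 14 were lower and 2 higher (25% and 3.57%, against 12.3% and 12.5%). In fed CTRL mice 5 were lower and 4 higher (8.93% and 7.14%), below the 10.6% and 10.9% of all genes. Without both arrays that lay closest to another group these counts were 28 and 8 in fed HFD, 35 and 1 in fasted HFD, and 9 and 5 in fed CTRL mice. The fed CTRL lower share was then 16.1%, above the 11.8% of all genes, and the higher share 8.93%, below 12.5%. Oasl1 and Samd9l passed as lower in all 4 genotype comparisons.

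Genes best known for their response to interferon gamma, including guanylate-binding proteins, chemokines and antigen presentation genes, formed a further list. Of 39 measured, 30 were lower and 1 higher in fasted HFD p110αhep-/- livers (76.9% and 2.56%, against 17.7% and 19.1% of all genes), with a median of -0.56. The largest differences were in the chemokine Cxcl10 (-2.05, adjusted p = 7.56e-09 by limma), the guanylate-binding protein gene Gbp6 (-2.03, adjusted p = 1.09e-11), the chemokine Cxcl9 (-1.80, adjusted p = 6.76e-05) and the GTPase gene Tgtp2 (-1.46, adjusted p = 9.95e-05). In fed HFD mice 18 were lower and 1 higher (46.2% and 2.56%, against 16.3% and 16.6% of all genes), and in fasted CTRL mice 10 were lower (25.6%, against 12.3%) and none higher. In fed CTRL mice 3 were lower and 2 higher (7.69% and 5.13%), below the 10.6% and 10.9% of all genes. H2-K1, a class I antigen presentation gene, passed as lower in all 4 comparisons, from -0.59 to -0.32.

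Upstream, most interferon genes could not be tested. Of 23 ligands listed 8 were measured (Ifna1, Ifna5, Ifna9, Ifna11, Ifna14, Ifnab, Ifnk and Ifnl3), and the probes for Ifnb1, Ifng and most other Ifna genes were too dim to be kept. None of the 8 passed by limma in any of the 4 genotype comparisons, where 10.6% to 17.7% of all genes passed as lower and 10.9% to 19.1% as higher, and medians ran from 0.00 to 0.13. Of the 12 receptor and JAK-STAT genes, 3 were lower and 2 higher in fasted HFD p110αhep-/- livers (25% and 16.7%), near the 17.7% and 19.1% of all genes. The type I receptor chains Ifnar1 (0.26, adjusted p = 7.01e-05 by limma) and Ifnar2 (0.26, adjusted p = 0.000494) were the higher ones. In fed CTRL mice 1 of the 12 was lower and 4 were higher (8.33% and 33.3%, against 10.6% and 10.9% of all genes). Without both arrays that lay closest to another group 5 were higher there. Among 18 sensors and adaptors 6 were lower (33.3%) and none higher in fasted HFD mice, led by Zbp1 (-1.07, adjusted p = 1.73e-05) and Dhx58 (-0.88, adjusted p = 3.06e-08), both nucleic acid sensors. Of the 10 negative regulators 2 were lower and 2 higher (20% each), again near the shares of all genes. Socs3, a feedback inhibitor of JAK kinases, was higher in 3 of the 4 genotype comparisons, by 1.13 or more, and had 0.53 (adjusted p = 0.112) in fasted HFD mice.

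**Figure D5:**
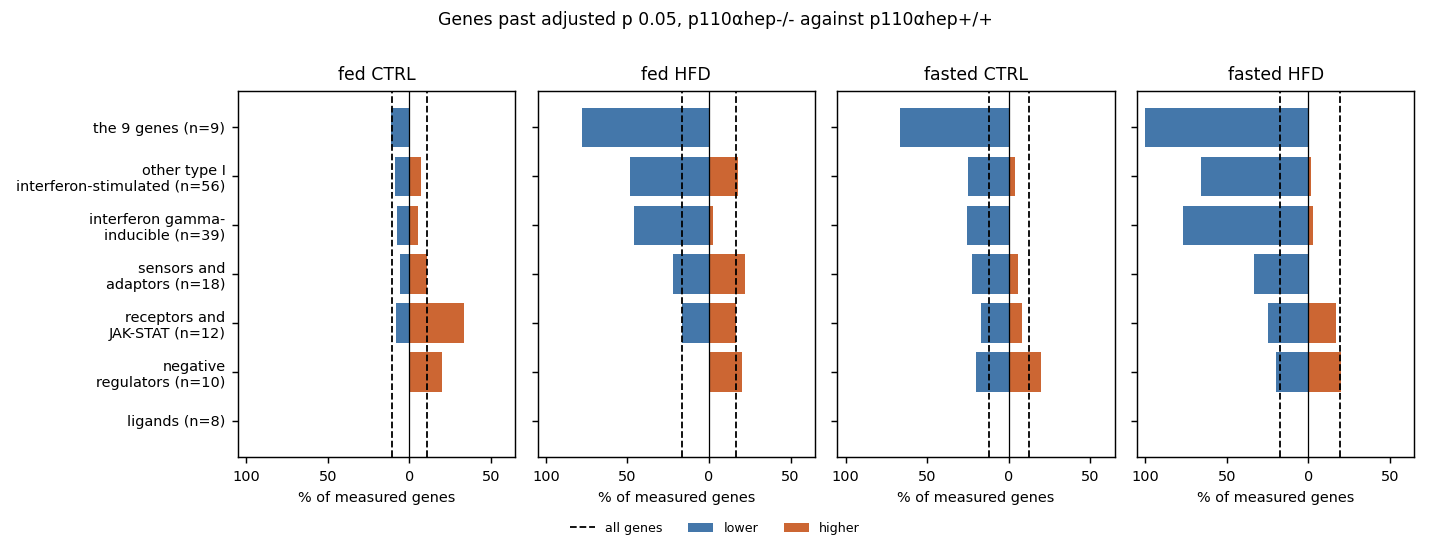
Share of measured genes (horizontal axes, percent) that passed as lower (blue, left) or higher (orange, right) in p110αhep-/- livers, for the 9 genes and 6 pathway lists in the 4 genotype comparisons; dashed lines give the share of all genes. In fasted HFD mice 100% of the 9 genes, 66.1% of the other type I list and 76.9% of the gamma-inducible list were lower, against 17.7% of all genes.

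Among markers of other cell types, those of monocytes and neutrophils were lower beside these lists. Of 8 monocyte and neutrophil markers measured, 6 were lower (75%) and none higher in fasted HFD p110αhep-/- livers (median -0.85), among them Ly6c2 (-1.85, adjusted p = 1.71e-11 by limma), S100a9 (-1.52, adjusted p = 0.000361), S100a8 (-1.29, adjusted p = 0.00068) and Ccr2 (-0.97, adjusted p = 1.38e-08). In fed HFD mice 2 of the 8 were lower and in each CTRL comparison 1 was, or 2 in fed CTRL mice without both arrays that lay closest to another group. These are 25% and 12.5%, against 16.3% of all genes in fed HFD, 10.6% in fed CTRL and 12.3% in fasted CTRL mice. The summed linear signal of the 8, in which the brightest probes weigh most, ran from 31100 to 38200 in fasted HFD p110αhep-/- and from 32100 to 39200 in p110αhep+/+ livers, and all 8 were well above background on every array of the latter group and 6 of 8 in the former. Of 13 Kupffer cell and macrophage markers 2 were lower (Cd68 and Mpeg1) and 2 higher (Cd163 and Vsig4) in fasted HFD mice (15.4% each, near the 17.7% and 19.1% of all genes), and none passed in fed HFD mice. Their summed signal ran from 35400 to 67800 in p110αhep-/- and from 35100 to 98600 in p110αhep+/+ livers after fasting on HFD. Of the 6 plasmacytoid dendritic cell markers 1, Klk1, was lower (16.7%, against 17.7% of all genes). Of the 9 T and NK cell and 4 B cell markers 1 was higher and none lower, where 19.1% and 17.7% of all genes were. Among structural cells of the fasted HFD livers, 7 of 8 endothelial markers were higher (87.5%, against 19.1% of all genes) and none lower. Of 6 cholangiocyte markers 5 were lower there (83.3%, against 17.7% of all genes), as were 5 in fed HFD, 5 in fasted CTRL and 4 in fed CTRL mice. In fasted HFD mice 2 of 7 stellate cell markers were higher and 1 lower (28.6% and 14.3%), and 1 of 10 hepatocyte markers was higher and 1 lower (10% each), counts of 1 or 2 genes beside 19.1% and 17.7% of all genes. The part of these cell types in the lower interferon-stimulated genes was not tested.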

How the data were processed

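RNA from 48 livers (200 ng, Cy3) was hybridised to 1-colour Agilent 8x60K mouse arrays. The deposited scanner files, written by Agilent Feature Extraction 10.10.1.1 per the submitters' processing notes, give spot intensity per probe; the authors also deposited a table of normalised log2 values. Here the median spot intensity was used, as in the study's methods, and no background was subtracted here: outlier spots were set missing, log2 values of a probe's spots averaged, and probes kept if well above background on at least 5 of 6 arrays of a group. Washing batch was removed with the 8 group means protected, and arrays were quantile normalised. limma 3.58.1 (R 4.3.3) fitted group means with array weights over all 48 arrays; p-values were two-sided and Benjamini-Hochberg adjusted over 30793 probes within each of 12 comparisons and 6 interactions, and called at 0.05. A gene was represented by its brightest kept probe. The number of arrays limits the precision. No 2 arrays held identical values. The labels number the samples as replicates, and the methods describe groups of 6 mice. The fit was tested on simulated data.

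The 9 genes, the pathway and marker lists were chosen with earlier results of these data known. All 9 genes are named, and of each other list the genes called in 4 or more of the 12 comparisons, where it helps, or up to 4 with the largest difference among those called in the comparison described; the 10 genes of most similar deviation are named in rank order. A result for 1 listed gene is not reported here. Alternatives were another signal, background correction, scaling, filter, batch handling, array weights, probe choice, threshold, the deposited log2 values, blocks and leaving out each array in turn. Promoters came from RefSeq (GRCm38.p6).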

Additional observations from a re-analysis of the deposited data

Results flagged for a closer look

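In 10 of 72 sets of 6 mice (9 genes in 8 groups) 1 mouse stood apart from the other 5, where its gap to the nearest mouse, as a share of the group's range, was above Dixon's 95% critical value. Chance gives about 3.6 such sets, and sets of different genes in 1 group share their mice. Fed HFD p110αhep-/- replicate 3 accounted for 6 of them, always as the highest, with a gap of 0.83 of the range for Ifit1 (7.72, nearest 6.68), 0.68 for Ifit2, 0.73 for Ifit3, 0.69 for Oasl2, 0.72 for Usp18 (9.23, nearest 8.16) and 0.70 for Ifi44. Fed HFD p110αhep+/+ replicate 3 was lowest for Ifit3 (0.63) and Isg15 (0.64). Fasted CTRL p110αhep-/- replicate 3 was lowest for Irf7 (0.71), and fasted HFD p110αhep-/- replicate 1 was lowest for Rsad2 (0.87).

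By limma's test of the difference itself, 5 of 54 effects differed between groups. The diet effect differed by genotype in fasted mice for Ifit2 by -0.57, for Oasl2 by -0.66 and for Usp18 by -0.91, and in fed mice for Oasl2 by -0.70. The fasting effect on HFD differed by genotype for Isg15 by -0.97.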

How the results depend on the processing

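Over the 9 genes, 23 calls were made by genotype, 11 by diet, 8 by fasting and 5 for interactions. The 16 alternative settings and the 48 fits without 1 array, with 1 alternative added after seeing the data (without both arrays nearer to another group), gave 3055 values for these 47 calls; 2831 kept the call, 224 lost it and 0 changed direction. The 9 genotype calls in fasted HFD mice held under every setting. Fewer calls were made within washing batch 1 (7 by diet, 4 by fasting, 0 interactions) and within washing batch 2 (11 by genotype, 2 by diet, 0 interactions), with 3 arrays a group. Interactions fell to 2 without a filter on dim probes, to 2 without array weights and to 3 when only the arrays of the groups compared were fitted. Requiring also a 1.5-fold change left 7 calls by diet and 3 by fasting. Leaving out each array in turn gave 21 to 25 calls by genotype, 8 to 14 by diet, 6 to 12 by fasting and 2 to 7 for interactions, and 29 of the 47 calls held without any 1 array. The causes were not tested.

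Replicate numbers are shared by the groups. Deviations of same-numbered arrays over all genes correlated at a median of 0.01 (highest 0.32, with 40 of 168 pairs over 0.1). Of the 48 arrays, 10 correlated best with their own number. No clear pairing by number was seen, but these correlations cannot exclude a weak one. With the replicate block 22 calls were made by genotype, 11 by diet, 6 by fasting and 4 for interactions.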

Other observations

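In fasted p110αhep+/+ mice HFD raised 8 of the 56 other type I interferon-stimulated genes (14.3%, against 8.96% of all genes), with Ifi27l2b at 1.77 (adjusted p = 6.13e-07 by limma), and lowered 4 (7.14%, against 6.97%, the share of all genes). It raised 7 of the 39 gamma-inducible genes (17.9%), with Cxcl10 at 0.97 (adjusted p = 0.00218), and lowered 0. In fasted p110αhep-/- mice it raised 0 and lowered 12 of the first list (21.4%, against 5.18% of all genes), with Oasl1 at -1.18 (adjusted p = 5.33e-06), and raised 1 and lowered 2 of the second (2.56% and 5.13%). Monocyte and neutrophil markers rose with HFD in fasted p110αhep+/+ mice in 6 of 8 cases (75%, median 0.71) and in 1 of 8 in fasted p110αhep-/- mice (12.5%, against 5.65% of all genes, median 0.05), and the difference between genotypes passed for 5 of 8 (62.5%, against 4.96% of all genes in either direction).

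Fasting lowered 22 and raised 1 of the 56 other type I genes in HFD p110αhep-/- mice (39.3% and 1.79%, against 14.6% and 13.9% of all genes; 20 and 1 without both arrays that lay closest to another group), with Ifi27l2b at -0.90 (adjusted p = 0.00639 by limma). It lowered 13 and raised 0 of the 39 gamma-inducible genes in CTRL p110αhep-/- mice (33.3%, against 19.1% of all genes), and 6 and 0 in HFD p110αhep-/- mice (15.4%, near the 14.6% of all genes). In CTRL p110αhep+/+ mice it lowered 1 and raised 1 of the 39 (2.56% each, against 16.5% and 16% of all genes). In HFD p110αhep+/+ mice it lowered 1 and raised 4 (2.56% and 10.3%, against 14.7% and 13.8% of all genes). In p110αhep+/+ mice it lowered 8 and raised 6 of the 56 on CTRL (14.3% and 10.7%, against 16.5% and 16% of all genes), or 10 and 4 without both arrays that lay closest to another group (17.9% and 7.14%, against 16.6% and 16.1%). On HFD it lowered 6 and raised 3 (10.7% and 5.36%, against 14.7% and 13.8%). In CTRL p110αhep-/- mice it lowered 16 and raised 2 (28.6% and 3.57%, against 19.1% and 16.4%).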
